A study of Mus musculus with 6 samples.

Results

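The genes described here handle lipid and cholesterol in macrophages. A list of 51 genes was drawn up by known function, with earlier results of these data known. All peaks that the authors' annotation assigned to one of them as the gene with the nearest start site were collected. Of the 51 genes, 19 had such a peak. They held 75 of the 16759 peaks in the 6 deposited lists, against 4908 genes with a peak in all. By role, the list comprised 9 uptake receptors and their regulators, 9 efflux and transport genes, 9 transcriptional regulators, 8 genes of sterol synthesis, oxidation and lysosomal release, 6 genes of triglyceride metabolism, storage and lipolysis, and 10 genes of fatty acid synthesis and activation.

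Macrophages take up lipoproteins through scavenger and endocytic receptors and split the cholesteryl esters in lysosomes. They store surplus cholesterol in lipid droplets or export it through ABC transporters to apolipoprotein A-I and high-density lipoprotein (HDL). Liver X receptors, PPARγ and SREBP-2 set the transcription of these genes, and ATF3, a basic leucine zipper factor induced by stress and by HDL, binds AP-1 and CRE sequences alone or with other factors of its family.

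ATF3 ChIP-seq was performed in bone marrow-derived macrophages (BMDMs) of C57BL/6 background, from Atf3 +/+ (WT) and Atf3 -/- (KO) mice, the WT mice being 6 to 8 weeks old and the KO mice age- and sex-matched to WT controls. All cells were grown for 6 days in M-CSF at 40 ng/ml and left unstimulated, given HDL at 2 mg/ml for 6 h, or given the same HDL and then CpG, a ligand of Toll-like receptor 9, at 100 nM for 4 h. No conditional allele is named in the labels, so the KO marrow cells carried the deletion throughout their development. The 3 biological replicates named in the labels were concatenated by the authors, which left 1 pooled WT and 1 pooled KO library per condition, of 37137377 to 75534584 reads. No spread between mice or cultures can be taken from such data, and every test below compares pooled libraries. Standard peaks came from the WT library without a control. For the KOIN-corrected peaks (knockout implemented normalization) the KO library served as control, and the authors dropped any peak also present in KO cells or less than 2-fold higher in WT than in KO. Kept denotes here a standard peak that shares 1 bp or more with a KOIN-corrected peak, and removed one that does not. Tags are reads in a peak scaled to 10000000 per library, and WT/KO is their ratio, with an exact 95% interval from the reads that covers counting error only. The interval of a site differs between the lists, so tags of 1 site in different conditions can cover different lengths, whereas WT and KO tags of a peak cover the same one. The peak lists hold binding and no expression, so the labelled cell type could not be checked on marker levels.

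The deleted gene itself was examined first. Its promoter carried a standard peak in each condition, with 16.7 WT and 9.66 KO tags in unstimulated cells, 21.9 and 12.1 with HDL and 15.4 and 7.79 with HDL + CpG. The ratios of 1.73, 1.81 and 1.97 were all under the authors' limit, and the promoter peak was removed in all 3 conditions. Upstream, 18 kb away, Atf3 had a peak that was kept in unstimulated cells (WT/KO 2.14) and with HDL (2.14). Another site, 47.3 to 47.6 kb upstream, was kept in all 3 conditions, at 2.03 unstimulated, 3.18 with HDL and 3.21 with HDL + CpG. A peak 41.1 kb upstream was kept with HDL (4.32) and HDL + CpG (2.93), and one 65.3 kb upstream with HDL (3.19). Tags at the locus do not show whether the ATF3 protein was absent, so this is no check of the genotype.

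Several sites of the lipid genes contained the AP-1 letters TGAGTCA, which read TGACTCA on the other strand. Anywhere in the peak, the 7 letters were found at 12 of the 28 sites, and within 100 bp of the peak centre at 9. Windows with 20 bases on each side of the match are shown for the sites that the results turn on. They are given 5′ to 3′ on the plus strand of the NCBIM37 reference (mm9), and capitals mark TGAGTCA or TGACTCA and any overlapping or nearby GAGGAAGT or ACTTCCTC, the core of the PU.1 motif on either strand. The site in Cd36 lies at chr5:17385920-17385966, the intronic site in Abca1 at chr4:53133419-53133465, the upstream site of Abca1 at chr4:53194470-53194597, that of Abcg1 at chr17:31175489-31175535, that of Lrp1 at chr10:127033848-127033894, and the exonic site of Pparg at chr6:115413205-115413251. These 6 belong to genes with KOIN-corrected peaks in 2 or 3 conditions.
Cd36, intron 1: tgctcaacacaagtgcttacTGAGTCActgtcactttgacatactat
Abca1, intron 5: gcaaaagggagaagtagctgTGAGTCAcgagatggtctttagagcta
Abca1, upstream: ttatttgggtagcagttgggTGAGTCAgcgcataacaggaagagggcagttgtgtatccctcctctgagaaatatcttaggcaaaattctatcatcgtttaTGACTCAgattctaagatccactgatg
Abcg1, upstream: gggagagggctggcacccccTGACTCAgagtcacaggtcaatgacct
Lrp1, intron 6: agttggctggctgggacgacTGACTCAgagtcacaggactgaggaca
Pparg, exon 5: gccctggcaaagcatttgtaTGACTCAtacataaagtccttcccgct

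The upstream site of Abca1 held the letters on both strands, 81 bp apart from start to start. In the Abcg1 and Lrp1 windows the letters stood in the same run of 18 bases, cTGACTCAgagtcacagg, which 4 of all 11888 standard peaks contained anywhere on either strand, namely the HDL and HDL + CpG peaks of these sites. The middle of the Cd36 match lay 2 bp from the peak centre with HDL, 13 bp from it in unstimulated cells and 75 bp from it with HDL + CpG. For Abcg1 the distance was 59 bp with HDL and 99 bp with HDL + CpG, and for Lrp1 416 and 72 bp. The exonic Pparg match lay 104 bp away with HDL + CpG. The Lrp1 peak with HDL, the Abcg1 peak with HDL + CpG and this Pparg peak had no match wholly within 100 bp. The intronic Abca1 match lay 23 to 53 bp from the centres, and the upstream pair 16 to 91 bp and 39 to 172 bp. A different arrangement was found upstream of Fabp5 (chr3:9984049-9984185), where the letters recurred 4 times, every 30 bp, their middles 104 to 194 bp from the peak centre. A pair of removed peaks is shown for contrast, upstream of Plin2 (chr4:86317920-86317966), where the AP-1 and PU.1 letters overlap by 1 base, and downstream of Ch25h (chr19:34495008-34495054).
Fabp5, upstream: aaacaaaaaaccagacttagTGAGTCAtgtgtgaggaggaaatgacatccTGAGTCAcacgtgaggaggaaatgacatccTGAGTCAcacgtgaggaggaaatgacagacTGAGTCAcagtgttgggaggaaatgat
Plin2, upstream: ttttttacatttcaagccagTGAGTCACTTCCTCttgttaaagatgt
Ch25h, downstream: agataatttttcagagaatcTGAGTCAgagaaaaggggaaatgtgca

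Counted over peaks, 16 of 45 standard peaks of the lipid genes (35.6%) had TGAGTCA within 100 bp of the centre, against 14.8% of all 11888 standard peaks in windows of the same length. Of the 30 kept peaks 14 had it (46.7%, against 26.2% of all kept peaks), and of the 15 removed peaks 2 (13.3%, against 7.58%). No standard peak of a lipid gene held the CRE letters TGACGTCA or the C/EBP-ATF composite TGATGCAA (TTGCATCA on the other strand), which 0.580% and 2.51% of all standard peaks held. The PU.1 core GAGGAAGT was present in 6 peaks (13.3%, against 3.71% of all). It lay at Lipa, Npc1, Pparg intron 1, Cd36 and the Plin2 site shown. Peaks found at 1 site in several lists share their bases, so the shares describe the lists and do not count independent sites.

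Lipid genes had 7 standard peaks in unstimulated cells, 24 with HDL and 14 with HDL + CpG, and 3, 16 and 11 KOIN-corrected peaks. The 45 standard peaks fell on 28 sites, of which 5 were found in all 3 standard lists, 7 in 2 lists and 16 in 1 list. Of the 28 sites, 12 were listed only with HDL, against 33.8% of all 7275 sites, 4 only with HDL + CpG, against 16.5%, and 0 only in unstimulated cells, against 7.75%. The standard lists differ in length, at 2779, 5319 and 3790 peaks in unstimulated, HDL and HDL + CpG cells. Altogether, 14 of the 19 genes had a standard peak in stimulated but not in unstimulated cells, against 54.3% of all genes with a standard peak. At 3 sites the peak was kept in every condition: Cd36 intron 1 and both AP-1 sites of Abca1.

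**Figure D1:**
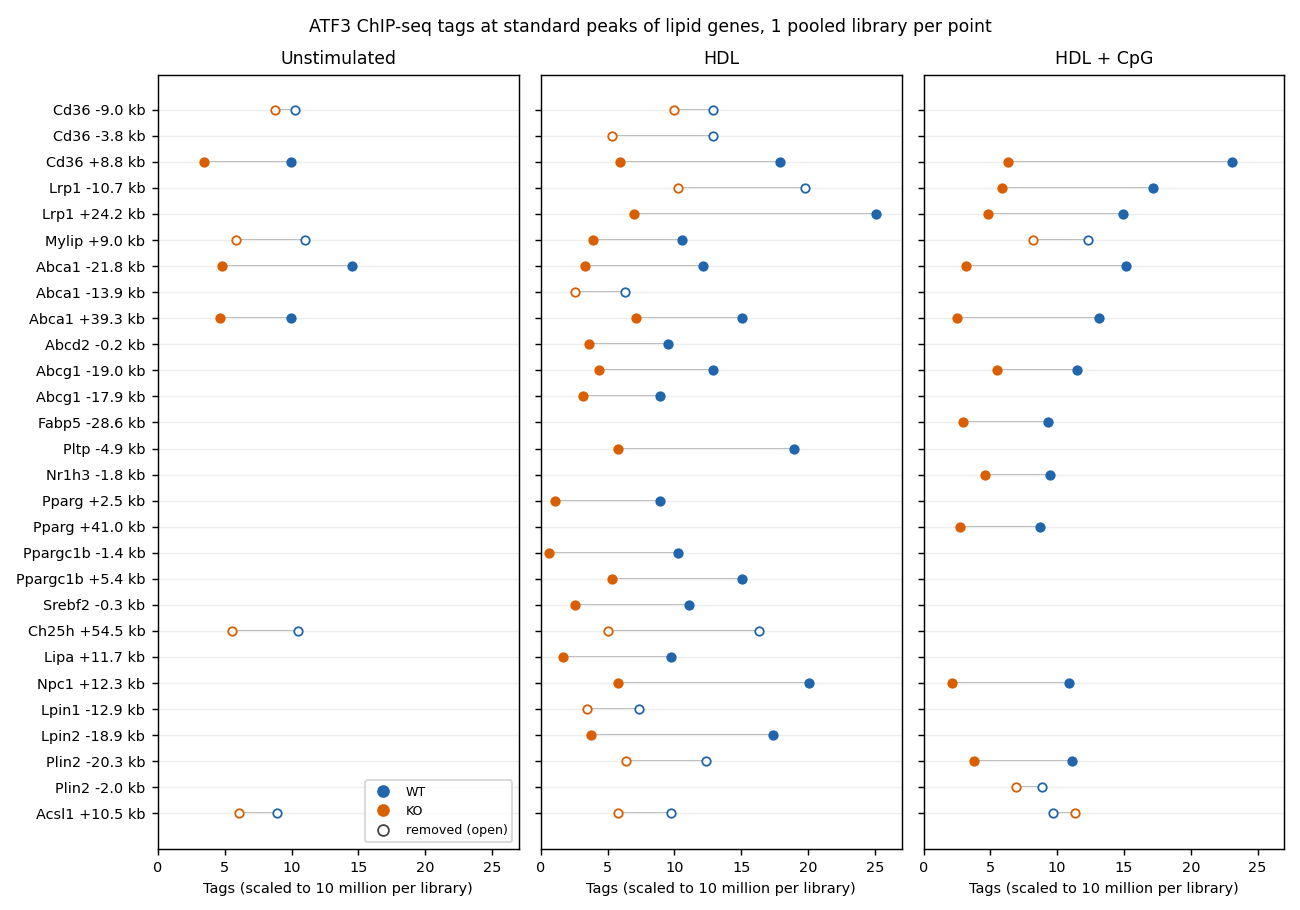
Tags, scaled to 10000000 per library, at the 28 sites of the lipid genes, with 1 panel per condition, WT in blue and KO in orange, each point being 1 pooled library and open points marking removed peaks. WT exceeded KO at every point pair except Acsl1 with HDL + CpG, where 9.70 WT stood against 11.4 KO tags.

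In unstimulated cells 2 of the 5 lipid genes with a standard peak also had a KOIN-corrected peak (40.0%, Wilson 95% interval 11.8 to 76.9%), against 24.9% of all genes with a standard peak. With HDL these were 13 of 17 genes (76.5%, 52.7 to 90.4%), against 63% of all genes. With HDL + CpG they were 9 of 11 genes (81.8%, 52.3 to 94.9%), against 34.9% of all genes. Among all genes that are not on the list, the shares were 24.9%, 63.0% and 34.7%. Only the interval of the HDL + CpG share lay wholly above that of the remaining genes, which ran from 33.0 to 36.5%. The list was chosen with earlier results of these data known, and its genes share the same pooled libraries. The intervals are therefore no test of an excess. The HDL + CpG share was 50% (4 of 8 genes) when only peaks with a MACS score of at least 60 were counted. It was 50% (2 of 4 genes) when only peaks within 10 kb of the start site were. No share over all genes is given at these settings, so they do not show whether the difference from all genes held.

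**Figure D2:**
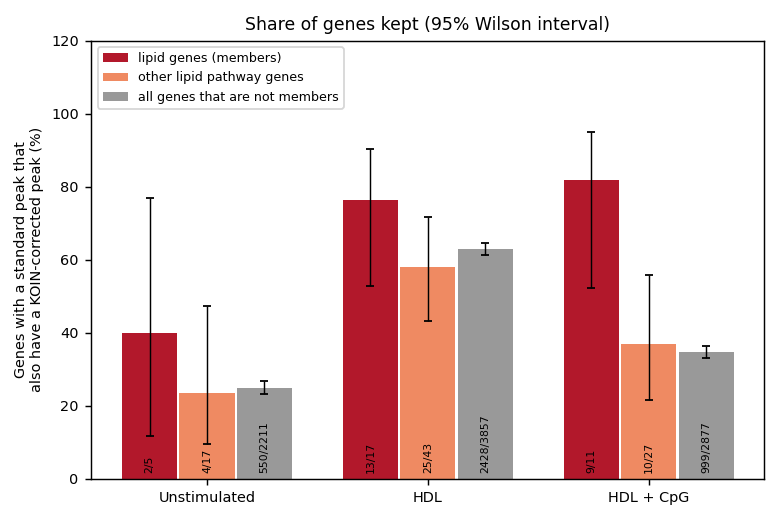
Percent of genes in the standard list for which the KOIN-corrected list also held a peak, by condition, for the lipid genes, for other lipid pathway genes and for all genes not among the 51, with 95% Wilson intervals and the counts in the bars. With HDL + CpG the bars read 81.8%, 37.0% and 34.7%.

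Single peaks were compared by a two-sided exact binomial test on the reads of both libraries, with Benjamini-Hochberg adjustment over the whole standard list. Standard peaks had been called from the same WT reads, so an excess in WT was favoured in advance, also at the single genes below. The shares over all peaks are therefore given beside the counts. More WT than KO reads (adjusted p under 0.05) were found in 5 of 7 lipid gene peaks in unstimulated cells, against 56.2% of all peaks, in 23 of 24 with HDL, against 79.5%, and in 11 of 14 with HDL + CpG, against 40.9%. A WT/KO of at least 2 was reached by 3 of 7 peaks (31.3% of all), 20 of 24 (66.6% of all) and 11 of 14 (34.7% of all). The median ratio of the lipid gene peaks was 1.90, 2.89 and 3.01, beside 1.66, 2.41 and 1.42 over all standard peaks. Removed peaks of all genes were themselves above 1, with medians of 1.49, 1.70 and 1.12. Relative to these, the medians of the lipid gene peaks were 1.27, 1.70 and 2.69, and the test then called 2, 12 and 10 peaks, against 16.9%, 29.5% and 34.2% of all peaks. Relative to peaks on satellites and simple repeats, with medians of 1.64, 2.38 and 1.00, the medians were 1.15, 1.21 and 3.01, and 1, 4 and 11 peaks were called, against 10.6%, 6.88% and 40.8% of all peaks. The counts for unstimulated and HDL-treated cells thus depended on the scale, and that for HDL + CpG moved by 1 peak at most.

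**Figure D3:**
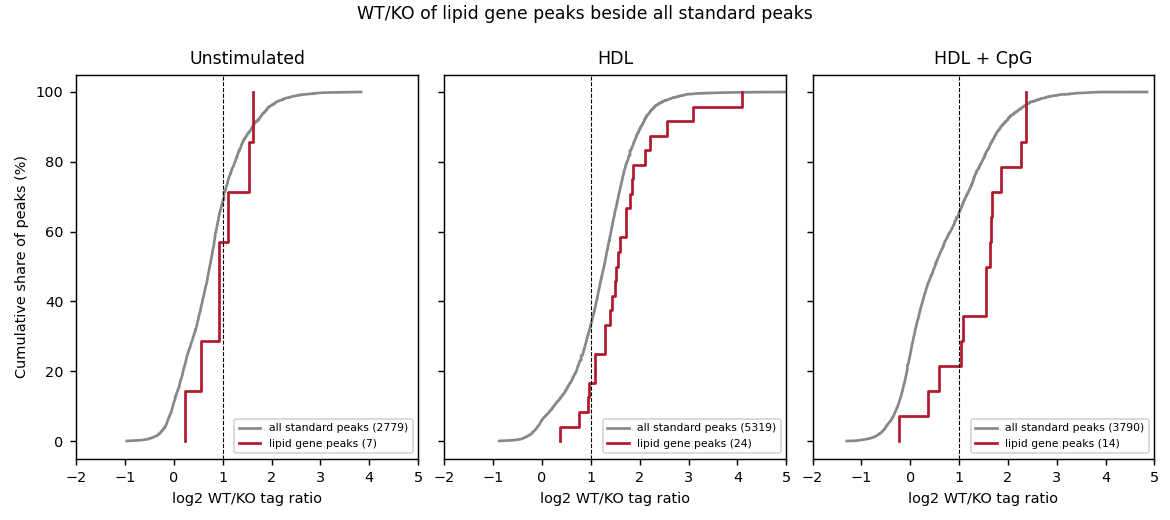
Cumulative share of peaks in percent by log2 WT/KO for all standard peaks (grey) and for those of the lipid genes (red), with 1 panel per condition and a dashed line at a ratio of 2. The red curve lies farthest to the right of the grey one with HDL + CpG, where the medians were 3.01 and 1.42.

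Among the uptake receptors, 3 of 9 genes had a standard peak and the same 3 a KOIN-corrected one. Such counts by role, here and below, pool the conditions. They are description only, as no share over all genes is given beside them. Cd36, a scavenger receptor for oxidized low-density lipoprotein and fatty acids, was bound in intron 1, 8.84 to 8.91 kb downstream of the start site (chr5:17385327-17386409 with HDL + CpG). WT and KO libraries held 9.96 and 3.44 tags in unstimulated cells, 17.9 and 5.90 with HDL, and 23.1 and 6.32 with HDL + CpG. WT tags were highest with HDL + CpG, KO tags were lowest in unstimulated cells, and the ratios stood at 2.89, 3.04 (2.02 to 4.63) and 3.65 (2.42 to 5.65). Both other Cd36 sites were removed. Upstream of the gene, WT and KO held 10.2 and 8.74 tags in unstimulated cells, where the peak centre lay 9.02 kb away on a simple repeat. With HDL they held 12.9 and 9.99 tags, and the centre lay 8.90 kb away on a SINE element. The third, 3.78 kb upstream of an alternative start and inside intron 1 of the longer transcript, had 12.9 against 5.30 tags with HDL, a WT/KO of 2.44.

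Lrp1 encodes a large endocytic receptor for remnant lipoproteins. Its site in intron 6 of 88 had 25.1 WT against 6.96 KO tags with HDL (3.60, 2.50 to 5.23) and 15.0 against 4.84 with HDL + CpG (3.09, 1.91 to 5.17). The peak was 1402 bp long with HDL and 918 bp with HDL + CpG, and per kb it held 17.9 and 16.3 WT tags. In GENCODE the same interval also overlaps Gm16217, whose start lies 0.683 kb from the peak centre. The second Lrp1 site, 10.7 to 10.8 kb upstream, had 19.8 WT and 10.3 KO tags with HDL, and 17.2 and 5.89 with HDL + CpG. It was removed with HDL at a ratio of 1.92 and kept with HDL + CpG at 2.92. The start of Stat6 lies 11.0 kb away on the other side, so the assignment of this site to Lrp1 rests on a short difference in distance. Mylip, an E3 ubiquitin ligase that sends the LDL receptor to degradation, had a site on an LTR element in intron 2. There WT and KO had 11.0 and 5.83 tags in unstimulated cells, 10.6 and 3.94 with HDL and 12.3 and 8.21 with HDL + CpG. The lowest KO level was that with HDL, and only there was the peak kept, at 2.68 against 1.90 and 1.5. No peak was listed for Msr1, Scarb1, Scarb2, Olr1, Vldlr or Lrpap1.

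Of the efflux and transport genes 5 of 9 had a standard peak, and all 5 had a KOIN-corrected peak. Abca1 exports cholesterol to lipid-poor apolipoprotein A-I and had 3 sites. At the site 21.8 kb upstream (chr4:53194099-53195018 with HDL + CpG), WT and KO held 14.5 and 4.77 tags in unstimulated cells, 12.1 and 3.33 with HDL, and 15.2 and 3.16 with HDL + CpG. The WT level was highest and the KO level lowest with HDL + CpG, and the ratios were 3.05, 3.64 and 4.80. The site in intron 5 of 49, 39.3 kb downstream of the start site (chr4:53132975-53133863 with HDL), had 9.96 and 4.63 tags in unstimulated cells, 15.0 and 7.11 with HDL and 13.1 and 2.53 with HDL + CpG. Here too the KO level was lowest with HDL + CpG, with 12 reads against 65 in WT. The peak was 889 bp long with HDL and 707 bp with HDL + CpG, and per kb the WT library held 16.9 and 18.6 tags and the KO library 8.00 and 3.58. Ratios of 2.15, 2.11 and 5.20 (2.79 to 10.6) resulted. The third site, on a TC repeat 13.9 kb upstream, was found with HDL only and removed, with 6.33 against 2.57 tags.

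Abcg1, which passes cholesterol on to HDL, had a pair of sites about 1 kb apart. The one 19.0 to 19.1 kb upstream had 12.9 WT and 4.39 KO tags with HDL and 11.5 and 5.47 with HDL + CpG, at ratios of 2.94 (1.82 to 4.83) and 2.11 (1.30 to 3.49). The other, 17.9 kb upstream, was listed with HDL alone (8.96 against 3.18 tags). Pltp, a plasma phospholipid transfer protein that remodels HDL, had a peak 4.87 kb upstream, listed with HDL only, with 19.0 WT and 5.75 KO tags (3.30, 2.20 to 5.03). Abcd2, a peroxisomal transporter of very long chain fatty acids, had 1 of the 2 promoter peaks of the group, 0.151 kb upstream of its start site on chromosome 15 and listed with HDL only. There 9.49 WT tags stood against 3.63 KO tags (2.61, 1.52 to 4.58, adjusted exact binomial p = 0.000486). The site of Fabp5, a cytosolic fatty acid carrier, with its 4 AP-1 copies 28.6 kb upstream was listed with HDL + CpG only, at 9.30 against 2.95 tags (3.16, 1.70 to 6.21). Apoe, Apoc2, Fabp4 and Stard4 had no peak.

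**Figure D4:**
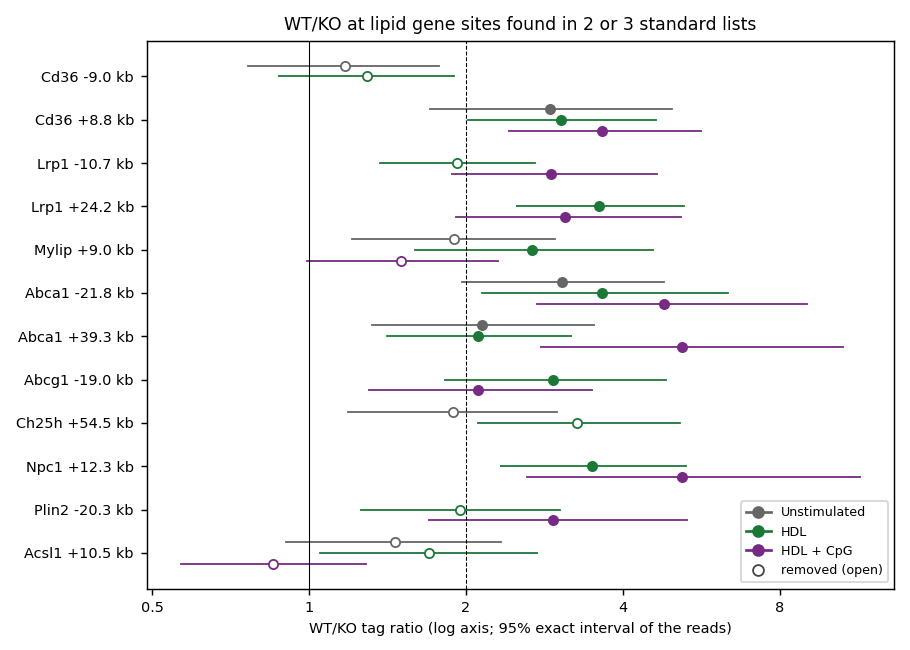
WT/KO on a log axis for the 12 sites found in 2 or 3 standard lists, coloured by condition, with exact 95% intervals of the reads and open points for removed peaks; lines mark 1 (solid) and 2 (dashed). The intronic Abca1 site lies at 5.20 with HDL + CpG and at 2.11 with HDL.

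Transcriptional regulators had standard peaks at 4 of 9 genes, none of them in unstimulated cells, and every peak was kept. Of all standard peaks, 54.9% with HDL and 29.7% with HDL + CpG were kept. Pparg, the nuclear receptor for fatty acid ligands, had a listed peak at a different place in each stimulated condition. With HDL the peak lay in intron 1 of 6, 2.49 kb downstream of the start site, with 8.96 WT and 1.06 KO tags. This corresponds to 34 and 7 reads and a ratio of 8.46 (3.69 to 22.6). With HDL + CpG it lay in exon 5 of 7, 41.0 kb downstream, with 8.69 and 2.74 tags (3.18, 1.68 to 6.44). It was the only exonic peak of the group, and neither place had a peak in the other condition's list. Both MACS scores, 40.3 with HDL and 46.9 with HDL + CpG, were near the lowest of the standard lists, 40.0. Tags at the place without a listed peak are not given, so a difference between conditions was not tested. Nr1h3, the liver X receptor α gene, had a peak 1.83 kb upstream with HDL + CpG only (9.50 against 4.63 tags, 2.05, 1.21 to 3.58), inside longer Nr1h3 transcripts and Gm13783 by GENCODE. The promoter of Srebf2, which encodes the activator of cholesterol synthesis SREBP-2, carried the other promoter peak with HDL, 0.300 kb upstream. It had 11.1 WT and 2.57 KO tags (4.3, 2.40 to 8.06, adjusted exact binomial p = 4.31e-07).

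Ppargc1b, a coactivator of nuclear receptors in fatty acid oxidation, showed the highest ratio of all lipid gene peaks. At 1.38 kb upstream, 10.3 WT stood against 0.61 KO tags with HDL, which are 39 and 4 reads, and the ratio of 17.0 (6.13 to 65.4) is correspondingly imprecise. Its second peak, 5.43 kb into intron 1, had 15.0 against 5.30 tags (2.84). Nr1h2, Rxra, Ppard, Srebf1 and Insig1 had no peak.

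In sterol metabolism and lysosomal release, 3 of 8 genes had a standard peak and 2 a KOIN-corrected one. Npc1, which moves cholesterol out of lysosomes, was bound in intron 1 of 24 in both stimulated conditions. WT and KO had 20.04 and 5.75 tags with HDL and 10.9 and 2.11 with HDL + CpG. Both levels were lower with HDL + CpG, and the ratios were 3.48 (2.33 to 5.29) and 5.19 (2.62 to 11.4). The authors' annotation put the site 12.2 to 12.3 kb from the start, but a second Npc1 start annotated by GENCODE lies 83 bp from the centre of the peak. Lipa, the lysosomal acid lipase that splits cholesteryl esters, had a peak in intron 3 of 9 with HDL only, with 9.75 against 1.67 tags (5.86, 2.93 to 12.7). Ch25h makes the oxysterol 25-hydroxycholesterol, and its site 54.5 kb downstream was the most distant of the group. It had 10.5 and 5.56 tags in unstimulated cells, and 16.4 and 5.0 with HDL. Both peaks were removed, the second at a ratio of 3.27 (2.11 to 5.15). Hmgcs1, Sqle, Npc2, Soat1 and Cyp27a1 had no peak.

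Among the genes of triglyceride metabolism and storage, 3 of 6 had a standard peak and 2 a KOIN-corrected one. Lpin2, a phosphatidate phosphatase, had the highest-scoring kept HDL peak of the group at a MACS score of 108, 18.9 kb upstream and within the GENCODE lincRNA Gm16724, with 17.4 WT and 3.78 KO tags (4.60, 2.86 to 7.61). For the related Lpin1 a CA repeat 12.9 kb upstream had 7.38 against 3.48 tags with HDL and was removed. Plin2, a coat protein of lipid droplets, had 12.4 and 6.36 tags with HDL at its site 20.3 kb upstream, and 11.1 and 3.79 with HDL + CpG. That site was removed with HDL at 1.95 and kept with HDL + CpG at 2.93. The site 2.00 kb upstream of Plin2, which holds the joined AP-1 and PU.1 letters, had 8.89 against 6.95 tags with HDL + CpG and was removed at 1.28 (0.797 to 2.08). No peak was listed for Lpl, Dgat2 or Pla2g7.

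Genes of fatty acid synthesis and activation had no kept peak. Of 10 genes only Acsl1, a long-chain acyl-CoA synthetase, had a peak, on a TG repeat in intron 1. WT and KO levels were 8.89 and 6.09 tags in unstimulated cells, 9.75 and 5.75 with HDL and 9.70 and 11.4 with HDL + CpG. The ratios of 1.46, 1.70 and 0.854 were all under 2, and all 3 peaks were removed. Scd1, Scd2, Fasn, Acaca, Elovl5, Elovl6, Fads1, Fads2 and Acsl3 had no peak. Thus 32 of the 51 genes had none, which says only that no listed peak was nearest to their start sites.

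The removed peaks with the 5 highest scores were those of Mylip with HDL + CpG (94.7) and unstimulated (71.6), and of Acsl1 (91.7), the upstream site of Lrp1 (90.5) and the distal Plin2 site (72.8) with HDL. Of all 15 removed peaks of the lipid genes, 9 had more WT than KO reads by the exact binomial test, against 37.6% of all removed peaks. A WT/KO of 2 or more was found in 4, all of them with HDL, against 15.2% of all removed peaks. These were Ch25h, the TC repeat of Abca1, the 3.78 kb site of Cd36, and Lpin1. Both shares over all removed peaks pool the conditions. The HDL list, where ratios over all peaks were highest, gave 8 of the 15 removed lipid gene peaks but 2400 of all 7268, so these shares are no matched background. Of the 6 peaks on satellites or simple repeats 0 were kept, against 27.5% of all such peaks.

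Whether WT/KO differed between conditions was tested at shared sites by a two-sided exact conditional test, with Benjamini-Hochberg adjustment over all shared sites of a pair of lists. From unstimulated to HDL-treated cells, 0 of 7 lipid gene sites differed, also at an unadjusted p under 0.05, against 19.1% of all 2006 sites higher and 2.59% lower with HDL. From unstimulated to HDL + CpG, 0 of 5 differed (1 at an unadjusted p under 0.05), against 2.48% of 1735 sites higher and 25.2% lower. Between HDL + CpG and HDL, 1 of 10 was higher and 0 were lower, against 2.65% and 33.3% of 2378 sites. The median quotient of the ratios was 1.16, 1.26 and 1.26 for the lipid gene sites, beside 1.26, 0.757 and 0.707 for all shared sites. The conditions share libraries, so the 3 comparisons are not independent. With 1 pooled library each, condition and library cannot be told apart.

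The site called was the one in intron 5 of Abca1. Its WT/KO with HDL + CpG was 2.46 times that with HDL (95% interval of the conditional estimate 1.14 to 5.58, adjusted exact conditional p = 0.0398). Over unstimulated cells the quotient was 2.42 (adjusted exact p = 0.0913). For the upstream Abca1 site the quotient of HDL + CpG over HDL was 1.32 (0.583 to 3.02), and for Cd36 1.20 (0.659 to 2.20). Both intervals span 1, and that of the upstream Abca1 site includes the quotient of the intronic one. Acsl1 had the lowest quotient, 0.503 (0.265 to 0.955, adjusted exact conditional p = 0.0767). Relative to the removed peaks, 1 of 5 lipid gene sites differed between HDL + CpG and unstimulated cells (the intronic Abca1 site), against 337 of all 1735 shared sites. Between HDL + CpG and HDL 2 of 10 differed (the intronic Abca1 site and the upstream one of Lrp1), against 822 of all 2378.

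By position, 2 of the 45 standard peaks lay at a promoter, 20 in introns, 1 in an exon and 22 between genes. Over all 11888 standard peaks these were 523, 4070, 60 and 7053. All lay within 100 kb of the start site, 17 within 10 kb and 28 beyond it, whereas 29.6% of all standard peaks were farther away than 100 kb. The median distance was 10.5 kb in unstimulated cells, 11.3 kb with HDL and 15.7 kb with HDL + CpG, beside 45.9, 33.0 and 36.2 kb for all. Satellites and simple repeats held 13.3% of the lipid gene peaks and 24.0% of all. The median score was 56.8, 64.1 and 63.8, beside 58.8, 58.3 and 56.5 for all peaks.

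**Figure D5:**
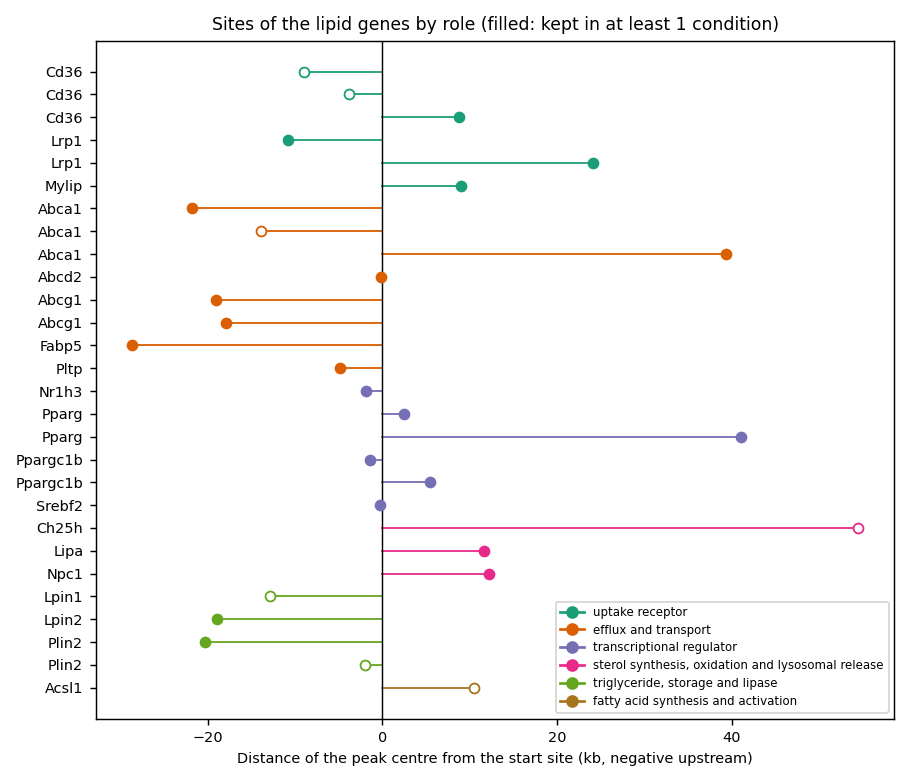
Distance in kb of the 28 sites from the start site of their gene, coloured by role, filled where the peak was kept in at least 1 condition. The sites range from 28.6 kb upstream (Fabp5) to 54.5 kb downstream (Ch25h), and the 6 of the transcriptional regulators are all filled.

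A further 210 genes of the same pathways were examined in the same way. Of these, 49 had a standard peak and 31 a KOIN-corrected one. In unstimulated cells 4 of 17 were kept (23.5%, against 24.9% of all genes). With HDL these were 25 of 43 (58.1%, against 63%), and with HDL + CpG 10 of 27 (37.0%, against 34.9%). Their median WT/KO of 1.69, 2.30 and 1.70 was below that of the 51 genes in every condition, beside 1.66, 2.41 and 1.42 over all standard peaks. KOIN-corrected peaks in all 3 conditions were found for Trib1, a pseudokinase linked to plasma lipid levels, and Agpat4, an acyltransferase of phospholipid synthesis. Cd68, Nceh1, Fabp1, Lipc, Soat2 and Osbpl8 had them in 2 conditions, and the WT/KO of the 22 KOIN-corrected peaks of these 8 genes ran from 2.04 to 9.88. The lower end was set in advance by the authors' 2-fold limit. Neither Trib1 nor Agpat4 had 1 site kept in all 3 conditions. The unstimulated Trib1 peak, at 9.88, lay 49.7 kb upstream, in intron 6 of another transcript. The Agpat4 peak in intron 2 was kept in unstimulated and HDL-treated cells. With HDL + CpG it was listed but removed (12.9 against 6.32 tags, 2.05), and a promoter peak was kept. At Cd68, a glycoprotein of macrophage lysosomes, the promoter peak was kept with HDL + CpG (15.2 against 4.63 tags).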

How the data were processed

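ATF3 ChIP-seq of WT and KO BMDMs in 3 conditions was analysed from 6 deposited peak lists, 1 standard and 1 KOIN-corrected list per condition. Reads were mapped by the authors to mm9 using Bowtie, and peaks were called using MACS and annotated using HOMER. In the submitters' processing notes the releases are CASAVA 1.8, Bowtie 0.12.8, MACS 1.4.2 and HOMER 4.3. Multi-mappable reads were kept by the authors, which matters for repeats such as that upstream of Fabp5. The deposited score is the MACS score. The deposited signal is the tag count per peak, scaled by the authors to 10000000 tags per library. The authors' column of WT/KO ratios and the list of barcodes were not used.

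All tag values lay no more than 0.005 tags from a multiple of 1 read, given the library totals in the file headers, and reads were recovered from them. WT against KO reads were compared by an exact binomial test and ratios between conditions by an exact conditional test, both adjusted by Benjamini-Hochberg over the whole list and tested on simulated data. Shares have Wilson 95% intervals. Motifs were counted within 100 bp of the peak centre. Of 4546 gene and promoter pairs, 92.1% had a GENCODE M1 start within 100 bp, and all 16759 peaks lay inside the chromosomes of NCBIM37. The gene list, the further 210 genes and the motifs were chosen with earlier results of these data known. All members with a peak were named, and all libraries' values were given for the genes with KOIN-corrected peaks in 2 or more conditions, with a peak within 1 kb of a start, or with a ratio that differed between conditions, and for the 5 highest-scoring removed peaks; of the further genes, the 8 with KOIN-corrected peaks in most conditions were named. Alternatives were minimum scores, distance limits, overlaps, repeats left out, ratios with 1 tag added to both libraries (0 otherwise), other scales and other motif windows. Tools were samtools 1.23.1, matplotlib 3.10.9, pysam 0.24.0 and scipy 1.17.1, with pandas 2.3.3 and numpy 2.4.6 under Python 3.11.15.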

Additional observations from a re-analysis of the deposited data

Results flagged for a closer look

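At the site in intron 5 of Abca1, WT/KO differed between stimulated conditions by the test of the difference itself. It was 5.20 with HDL + CpG (65 WT and 12 KO reads) and 2.11 with HDL (57 WT and 47 KO reads), a quotient of 2.46 (adjusted exact conditional p = 0.0398). With an overlap of 50% the adjusted exact p was 0.0398, relative to removed peaks 0.00129 (quotient 3.73), and relative to peaks on satellites and simple repeats, a scale added after seeing the data, 4.00e-06 (quotient 5.86). With HDL + CpG the peak was 707 bp long, with 18.6 WT and 3.58 KO tags per kb, and with HDL 889 bp, with 16.9 and 8.00. No replicate check exists, since each library is 1 pool.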

How the results depend on the processing

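Leaving out replicates was not possible because the authors pooled them. No paired analysis was possible because each group is 1 pooled library. The share of lipid genes kept in unstimulated cells was 80.0% when more WT reads by the exact binomial test replaced KOIN, and no lipid gene was left there at a score of at least 100. With HDL it was 100.0% by that test, within 10 kb (7 genes) and at a score of at least 100 (1 gene). With HDL + CpG it was 50% at a score of at least 60 (8 genes), 50% within 10 kb (4 genes) and 100.0% at a score of at least 100 (1 gene). Shares over all genes at these settings are not given, so these values have no background beside them. On the scale of satellites and simple repeats, 1 peak had more WT reads in unstimulated cells, 4 with HDL and 11 with HDL + CpG. On that of removed peaks these were 2, 12 and 10. When only peaks scoring at least 60 entered, they were 2 of 3, 12 of 12 and 7 of 9 peaks. No share over all peaks is given at that score. On the satellite scale, WT/KO with HDL turned below 1 at the intronic Abca1 site (0.886), Acsl1 (0.711), Lpin1 (0.889), the upstream Lrp1 site (0.806) and the distal Plin2 site (0.817), and on the scale of removed peaks at Acsl1 (0.999), all of them peaks with more WT reads by the exact binomial test. Peaks without such a call also turned, the Cd36 site 9 kb upstream to 0.542 (HDL) and 0.714 (unstimulated) on the satellite scale and to 0.762 and 0.784 on that of removed peaks, and Acsl1 in unstimulated cells to 0.889 and 0.976. On the scale of removed peaks, lipid gene sites whose ratio differed numbered 1 for HDL + CpG over unstimulated cells, against 337 of all 1735 shared sites. For HDL + CpG over HDL they numbered 2, against 822 of all 2378. On the satellite scale, tried for this comparison after seeing the data, they numbered 2 and 7. No count over all shared sites is given for that scale, so these numbers have no background beside them. TGAGTCA was within 50 bp in 14.3% of lipid gene peaks with HDL + CpG. Adding 1 tag left all 45 ratios within their intervals, whereas 15 moved further than that on the scale of removed peaks and 24 on the satellite scale. These counts leave out only the peaks with a call that turned below 1. What caused these shifts was not tested. Depth limits the ratios most where KO reads are few, as at Ppargc1b with 4.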

Other observations

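The run of 18 bases shared by the Abcg1 and Lrp1 windows was noticed after the sequences had been compared, and 13 bases were the next longest run shared by any pair of printed windows (upstream Abca1 and Ch25h). The median GC content within 100 bp of the centre was 49.8% for lipid gene peaks and 47.3% for all standard peaks.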
